A study of Homo sapiens with 38 samples.

Results

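Interferon-stimulated genes are the transcripts that cells raise when an interferon receptor is engaged. A list of 48 such genes, taken by symbol with no expression value in the rule, was followed through 15 deposited tables of RNA sequencing, each of which set 1 compound beside its DMSO libraries. All 48 genes were listed in at least 1 table, of 24463 genes listed in all, and 35 were listed in every table. Of the list, 42 to 45 genes were present per table. ISG15 was listed in the 8 tables of T47D and BT-549 and XAF1 in the 4 tables of BT-549. IFI44L was listed in 5 tables, RSAD2 in 8 and TRIM22 in 1. Where a gene was not listed it is not analysed here.

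The samples were 3 established human breast cancer cell lines, and the study asks how compounds that degrade or inhibit EZH2, the methyltransferase of polycomb repressive complex 2, alter transcripts. There were 19 groups of 2 samples. BT-549, T47D and T47D-TR were each treated for 48 h at 2.5 uM with the EZH2 degrader MS177, with MS177-N1 or MS177-N2, which are its negative controls, or with the EZH2 inhibitor C24, beside a vehicle group in 0.125% DMSO. A separate 30 h set in T47D-TR, also at 2.5 uM, comprised the EZH2 degrader MS8815, MS8815-N as the negative control of that degrader, and the EZH2 inhibitor EPZ-6438, beside a vehicle group in 0.05% DMSO. All lines grew in serum and insulin, none was given interferon per the labels, and T47D-TR is named in the labels without a description of how it was derived. MS177 in BT-549 and MS8815 in T47D-TR, the pair of responses set against each other below, differ at once in compound, line, time and vehicle concentration, and these cannot be told apart. The labels do not say that the samples of a group came from separate cultures, so p-values measure the spread between these samples, which may be technical.

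As background, type I interferons act through the receptor chains IFNAR1 and IFNAR2, the kinases JAK1 and TYK2, and a complex that includes STAT2 and IRF9. That complex binds the interferon-stimulated response element in the promoters of its targets. The targets include sensors of viral RNA, enzymes that halt translation or degrade RNA, proteins that bind viral RNA or block viral entry, and the ubiquitin-like protein ISG15 with the enzymes that attach and remove it. Some of the same genes, the IFIT genes and RSAD2 among them, are also direct targets of IRF3, the factor activated by nucleic acid sensing, and others answer to IRF1. Many carcinoma lines hold a low level of these transcripts without added interferon.

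Levels below are normalized counts of a gene, given library by library, a fold is a ratio of group means, and a log2 difference (± SE) is on the log2(normalized count + 1) scale, compound minus its comparator, which understates changes of low genes. A gene passed the test where the limma p-value, adjusted over all tested genes of a comparison, was below 0.05. Levels are not corrected for transcript length and are not compared between genes. Summed over their listed genes, BT-549 and T47D libraries came to between 32.1 and 49.9 M reads, and the depth of T47D-TR libraries is unknown. Some libraries stood apart. MS8815-N replicate 2 had 44.3% of its listed genes at 0 and its smallest value above 0 was 5.51 normalized counts. In MS8815 replicate 1 the chaperone gene HSP90AA1 took 12.4% of the normalized sum, against 1.68% in MS8815 replicate 2 and 0.297% and 0.305% in DMSO. The EPZ-6438 replicates correlated across genes at 0.9276, against 0.978 for the DMSO replicates of that table. The MS177 replicates of T47D correlated across genes at 0.9168, against 0.9895 for the DMSO replicates of that table. For MS8815 in T47D-TR the replicates correlated at 0.9112, lower than both of these pairs, against 0.9793 for the DMSO replicates of its table. Vimentin, the mesenchymal marker VIM, was at 64894 and 64520 with MS177 and at 81322 and 76622 with DMSO in BT-549, and at or below 7.76 in the MS177, MS8815 and DMSO libraries of their tables in T47D-TR. The luminal marker KRT8 was at 44681 or more in the same T47D-TR libraries and at 1019 or less in those of BT-549. GATA3, also a luminal marker, did not separate the lines in this way, at 2630 to 6524 in BT-549 and at 4043 or more in T47D-TR.

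The promoters of these genes show what they share beyond their name. RefSeq windows of the GRCh38.p14 assembly, covering 250 bases before and 50 bases after the annotated start, were found for 38 of 48 genes. Where a gene had more than 1 window only the first was searched, as for RSAD2 (2 windows), XAF1 (2) and MX1 (3). The genes without a window were DDX58, IRF7, OAS2, OASL, IFIT2, IFITM2, USP18, MX2, TRIM22 and PML. The core of the response element was searched on both strands as GAAA, any 2 bases and GAAA again, which reads TTTC, any 2 bases and TTTC where it points the other way, and overlapping matches were kept. It occurred in 24 of 38 windows (63.2%), against 3.57% of 35116 windows of the whole table. The gamma-activated site, searched as TTCNNNGAA, occurred in 10 of 38 windows (26.3%), against 7.66% of all windows. A match is a description of letters and not evidence of a bound site. Printed first are the 4 genes with a match and the largest falls past the threshold with MS177 in BT-549, with each core in capitals. IFIT1 and MX1 are also among the genes that rose with MS8815 in T47D-TR.
IFIT1, chr10:89392373-89392672, forward strand: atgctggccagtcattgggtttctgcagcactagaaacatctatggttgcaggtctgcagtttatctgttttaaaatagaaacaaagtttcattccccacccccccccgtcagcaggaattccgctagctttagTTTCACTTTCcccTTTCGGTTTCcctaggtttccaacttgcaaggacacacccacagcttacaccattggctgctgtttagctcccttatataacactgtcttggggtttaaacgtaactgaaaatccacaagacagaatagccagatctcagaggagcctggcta
IFIH1, chr2:162318635-162318934, reverse strand: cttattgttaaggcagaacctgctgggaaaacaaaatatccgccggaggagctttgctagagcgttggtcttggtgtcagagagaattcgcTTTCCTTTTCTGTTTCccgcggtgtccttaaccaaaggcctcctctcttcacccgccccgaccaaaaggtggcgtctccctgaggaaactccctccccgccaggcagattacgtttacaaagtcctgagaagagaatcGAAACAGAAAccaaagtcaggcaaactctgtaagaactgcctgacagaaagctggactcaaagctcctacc
MX1, chr21:41420308-41420607, forward strand: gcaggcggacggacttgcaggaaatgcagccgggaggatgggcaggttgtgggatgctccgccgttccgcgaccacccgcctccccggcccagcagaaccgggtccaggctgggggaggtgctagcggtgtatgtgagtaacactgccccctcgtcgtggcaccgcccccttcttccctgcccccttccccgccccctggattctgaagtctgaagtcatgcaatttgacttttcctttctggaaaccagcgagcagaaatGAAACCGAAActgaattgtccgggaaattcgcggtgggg
OAS3, chr12:112938224-112938523, forward strand: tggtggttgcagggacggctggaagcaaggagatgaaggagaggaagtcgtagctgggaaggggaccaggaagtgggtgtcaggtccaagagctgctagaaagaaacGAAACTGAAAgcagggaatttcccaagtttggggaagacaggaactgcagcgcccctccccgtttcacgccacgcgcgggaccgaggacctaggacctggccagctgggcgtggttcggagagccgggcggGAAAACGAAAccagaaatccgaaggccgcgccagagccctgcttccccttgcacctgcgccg
TRIM25 and HERC6 had the largest differences past the threshold in BT-549 without these letters in their windows, TRIM25 upward and HERC6 downward, and are shown for comparison in lower case throughout.
TRIM25, chr17:56914000-56914299, reverse strand: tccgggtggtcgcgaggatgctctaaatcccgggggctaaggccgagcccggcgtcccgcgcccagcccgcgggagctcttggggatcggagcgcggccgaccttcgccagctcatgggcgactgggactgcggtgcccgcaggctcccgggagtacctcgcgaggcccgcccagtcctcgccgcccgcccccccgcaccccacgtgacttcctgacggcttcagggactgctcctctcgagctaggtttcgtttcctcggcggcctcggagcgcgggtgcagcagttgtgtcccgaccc
HERC6, chr4:88378602-88378901, forward strand: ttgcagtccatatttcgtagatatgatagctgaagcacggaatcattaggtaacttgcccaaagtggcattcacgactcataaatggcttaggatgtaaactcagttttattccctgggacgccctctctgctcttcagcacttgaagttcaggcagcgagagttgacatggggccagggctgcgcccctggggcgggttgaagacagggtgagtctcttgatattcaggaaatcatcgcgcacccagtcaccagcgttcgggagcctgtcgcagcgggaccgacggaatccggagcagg
The 4 other genes that rose with MS8815 and had a match are shown as the core nearest the start, in capitals with 6 bases on each side, read in the direction of the element. The cores begin 122 bases (IFIT3, chromosome 10), 4 bases (IFIT5, chromosome 10), 69 bases (ISG20, chromosome 15) and 18 bases (IFI44, chromosome 1) before the start.
IFIT3: aaactgGAAAGTGAAActaatt
IFIT5: cgctcaGAAACTGAAActtaag
ISG20: aaactaGAAACTGAAAcagggt
IFI44: agaaagGAAACTGAAActcagt
By response, the core was found in 6 of 7 windows of genes that rose with MS8815 in T47D-TR, the exception being the first window of RSAD2. It was found in 7 of 12 windows of genes that fell with MS177 in BT-549, and in 1 of 4 windows of genes that rose there, the 1 being ISG20. With MS177 in T47D-TR it was found in 4 of 7 windows of genes that rose and in 5 of 10 windows of genes that fell.

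MS177 in BT-549, a mesenchymal-like line, lowered a broad set of these genes and raised a few. Of 41 tested genes, 17 fell and 4 rose, while 12.6% and 11.5% of all 16336 tested genes fell and rose (24% passed in either direction). Among the 41 genes 51.2% passed. The median log2 difference over the 41 genes was -0.71, against 0.014 over all tested genes, and 30 of 41 differences were below 0. OAS2, CMPK2 and SAMD9L among the genes that fell, and IFITM1, which did not pass, entered the test through their DMSO libraries alone. Of the other 37 genes 14 fell and 4 rose (48.6%), and their median log2 difference was -0.46. Genes that fell included 2 RNA sensors, 2 oligoadenylate synthetases (OAS2 being 1) and 2 IFIT genes, whereas TRIM25, ISG20, XAF1 and IRF1 rose. UBE2L6 and USP18 of the ISG15 pathway also fell, as did HERC6, which is the ISG15 ligase of mouse. In bulk samples such as these, fewer cells that express a gene and less RNA per cell cannot be told apart. In the same libraries the 8 mesenchymal markers summed to 106723 to 115182 with MS177 and to 145443 to 147106 with DMSO. The luminal markers, 7 of 8 listed, summed to 27014 to 32083 with MS177 and to 24671 to 27274 with DMSO, of which KRT18 held the largest part. Of 5 luminal markers tested, KRT8 rose, at 807 and 1019 with MS177 against 356 and 403 with DMSO, and GATA3 fell, at 2630 and 2748 with MS177 against 6524 and 5961 with DMSO. The part of either list in the result was not tested.

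Among the RNA sensors, IFIH1 (MDA5, which detects long double-stranded RNA; chromosome 2, 162267079 to 162318703, reverse strand) was at 44.9 and 49.4 with MS177, against 134 and 142 with DMSO. It fell 2.93-fold (log2 difference -1.53 ± 0.19, limma adjusted p = 0.00687), and the groups did not overlap. DDX60, a helicase of the same response, fell 2.02-fold (limma adjusted p = 0.0322). DDX58 (RIG-I), the sensor of RNA ends, was at 495 and 466 with MS177 and at 479 and 459.5 with DMSO, and its groups overlapped.

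The oligoadenylate synthetases make the messenger that switches on RNase L. OAS3 (chromosome 12, 112938352 to 112973249, forward strand) was at 222 and 158 with MS177, against 443 and 493 with DMSO, a 2.47-fold fall (log2 difference -1.32 ± 0.21, limma adjusted p = 0.0125). OAS2 was low throughout, at 1.87 and 1.94 with MS177 and at 13.7 and 11.4 with DMSO (limma adjusted p = 0.0311), and it entered the test through its DMSO libraries alone. EIF2AK2, the kinase PKR that stops translation on double-stranded RNA, did not pass, at 2436 and 1905 with MS177 and 2279 and 2635 with DMSO.

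The IFIT proteins bind viral RNA and are encoded side by side on chromosome 10, and they did not move as one in BT-549. IFIT1 (chromosome 10, 89392546 to 89406486, forward strand) was at 40.2 and 43.6 with MS177, against 218 and 145 with DMSO, a 4.32-fold fall (log2 difference -2.06 ± 0.26, limma adjusted p = 0.00713). IFIT2 was at 33.6 and 35.8 with MS177 and at 118 and 79 with DMSO, a 2.84-fold fall (limma adjusted p = 0.0198). For both genes the MS177 libraries lay close together and below each DMSO library, and the DMSO libraries differed from each other more than the MS177 libraries did. IFIT3 was at 131 and 121 with MS177 and 122 and 119.6 with DMSO, and IFIT5 was at 472 and 482 with MS177 and 479 and 482 with DMSO. Their 95% intervals of the log2 difference were -0.37 to 0.48 and -0.32 to 0.30, and neither passed.

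ISG15 and its enzymes fell in part. UBE2L6, the conjugating enzyme of ISG15, was at 208 and 213 with MS177, against 625 and 521 with DMSO, 2.72-fold lower (limma adjusted p = 0.00489). USP18, which removes ISG15 and dampens the interferon receptor, was at 102 and 110.4 with MS177 and at 278 and 276 with DMSO, 2.61-fold lower (limma adjusted p = 0.00544). HERC6, the ISG15 ligase of mouse, was at 16.8 and 9.68 with MS177 and at 51.7 and 47.8 with DMSO, 3.76-fold lower (limma adjusted p = 0.0209). In all 3 genes both MS177 libraries lay under both DMSO libraries. ISG15 itself was at 694 and 1217 with MS177 and at 2406 and 1604 with DMSO, and its log2 difference of -1.09 ± 0.32 did not pass (limma adjusted p = 0.0649). HERC5, the main human ligase for ISG15, was at 539 and 621 with MS177 and 535 and 505 with DMSO and did not pass.

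Of the remaining effectors that fell, MX1, a GTPase that blocks influenza virus, was at 12.2 and 17.4 with MS177, against 45.4 and 37.4 with DMSO (limma adjusted p = 0.0328). PARP9, an ADP-ribosyltransferase that works with DTX3L, was at 268 and 214 with MS177 and at 650.5 and 612 with DMSO (limma adjusted p = 0.00604). SAMD9L, a poxvirus restriction factor, was at 9.35 and 7.74 with MS177 and at 28.5 and 30.1 with DMSO (limma adjusted p = 0.0238). These 3 genes fell 2.62 to 3.43-fold. CMPK2, a mitochondrial nucleotide kinase, was at 4.67 and 6.78 with MS177 and at 23.2 and 19.8 with DMSO, and like SAMD9L it entered the test through DMSO libraries alone. SAMD9, IFITM3, IRF7 and PML fell 1.64 to 2.35-fold. IFITM3 is a barrier to viral entry, IRF7 a factor that raises interferon genes and PML the scaffold of a nuclear body.

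The genes that rose in BT-549 shared role groups with genes that fell. TRIM25, a ubiquitin ligase that activates RIG-I (chromosome 17, 56836387 to 56914080, reverse strand), was at 11691 and 9758 with MS177, against 2474 and 2729 with DMSO, a 4.12-fold rise (log2 difference 2.04 ± 0.14, limma adjusted p = 0.00183). ISG20, an RNA exonuclease, was at 244 and 380.5 with MS177 and at 151 and 101 with DMSO (2.48-fold, limma adjusted p = 0.0348). XAF1, which antagonizes the apoptosis inhibitor XIAP, was at 107 and 131 with MS177 and at 54.9 and 41.6 with DMSO (2.47-fold, limma adjusted p = 0.0194). Of these, TRIM25 was separated most widely from DMSO. IRF1, a transcription factor induced chiefly by interferon gamma, was at 4147 and 4266 with MS177 and at 3173 and 2745 with DMSO (1.42-fold, limma adjusted p = 0.0377). IRF1, IRF7, MX1 and IFITM3 no longer passed when DMSO replicate 1 was left out, nor IRF1, PML and SAMD9 when DMSO replicate 2 was left out. In either fit OAS2, CMPK2 and SAMD9L were no longer tested, and other genes of the list came to pass. The share of all tested genes that passed was lower in both fits as well. Of the genes that passed, IRF1, OAS2, OAS3, IFIT1, IFIT2, IFITM3, MX1, TRIM25, PARP9, CMPK2 and XAF1 overlap other annotated genes, on the opposite strand in most cases, and the strand of the libraries is not given in the sources used here, so that reads of such partners cannot be told apart.

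**Figure D1:**
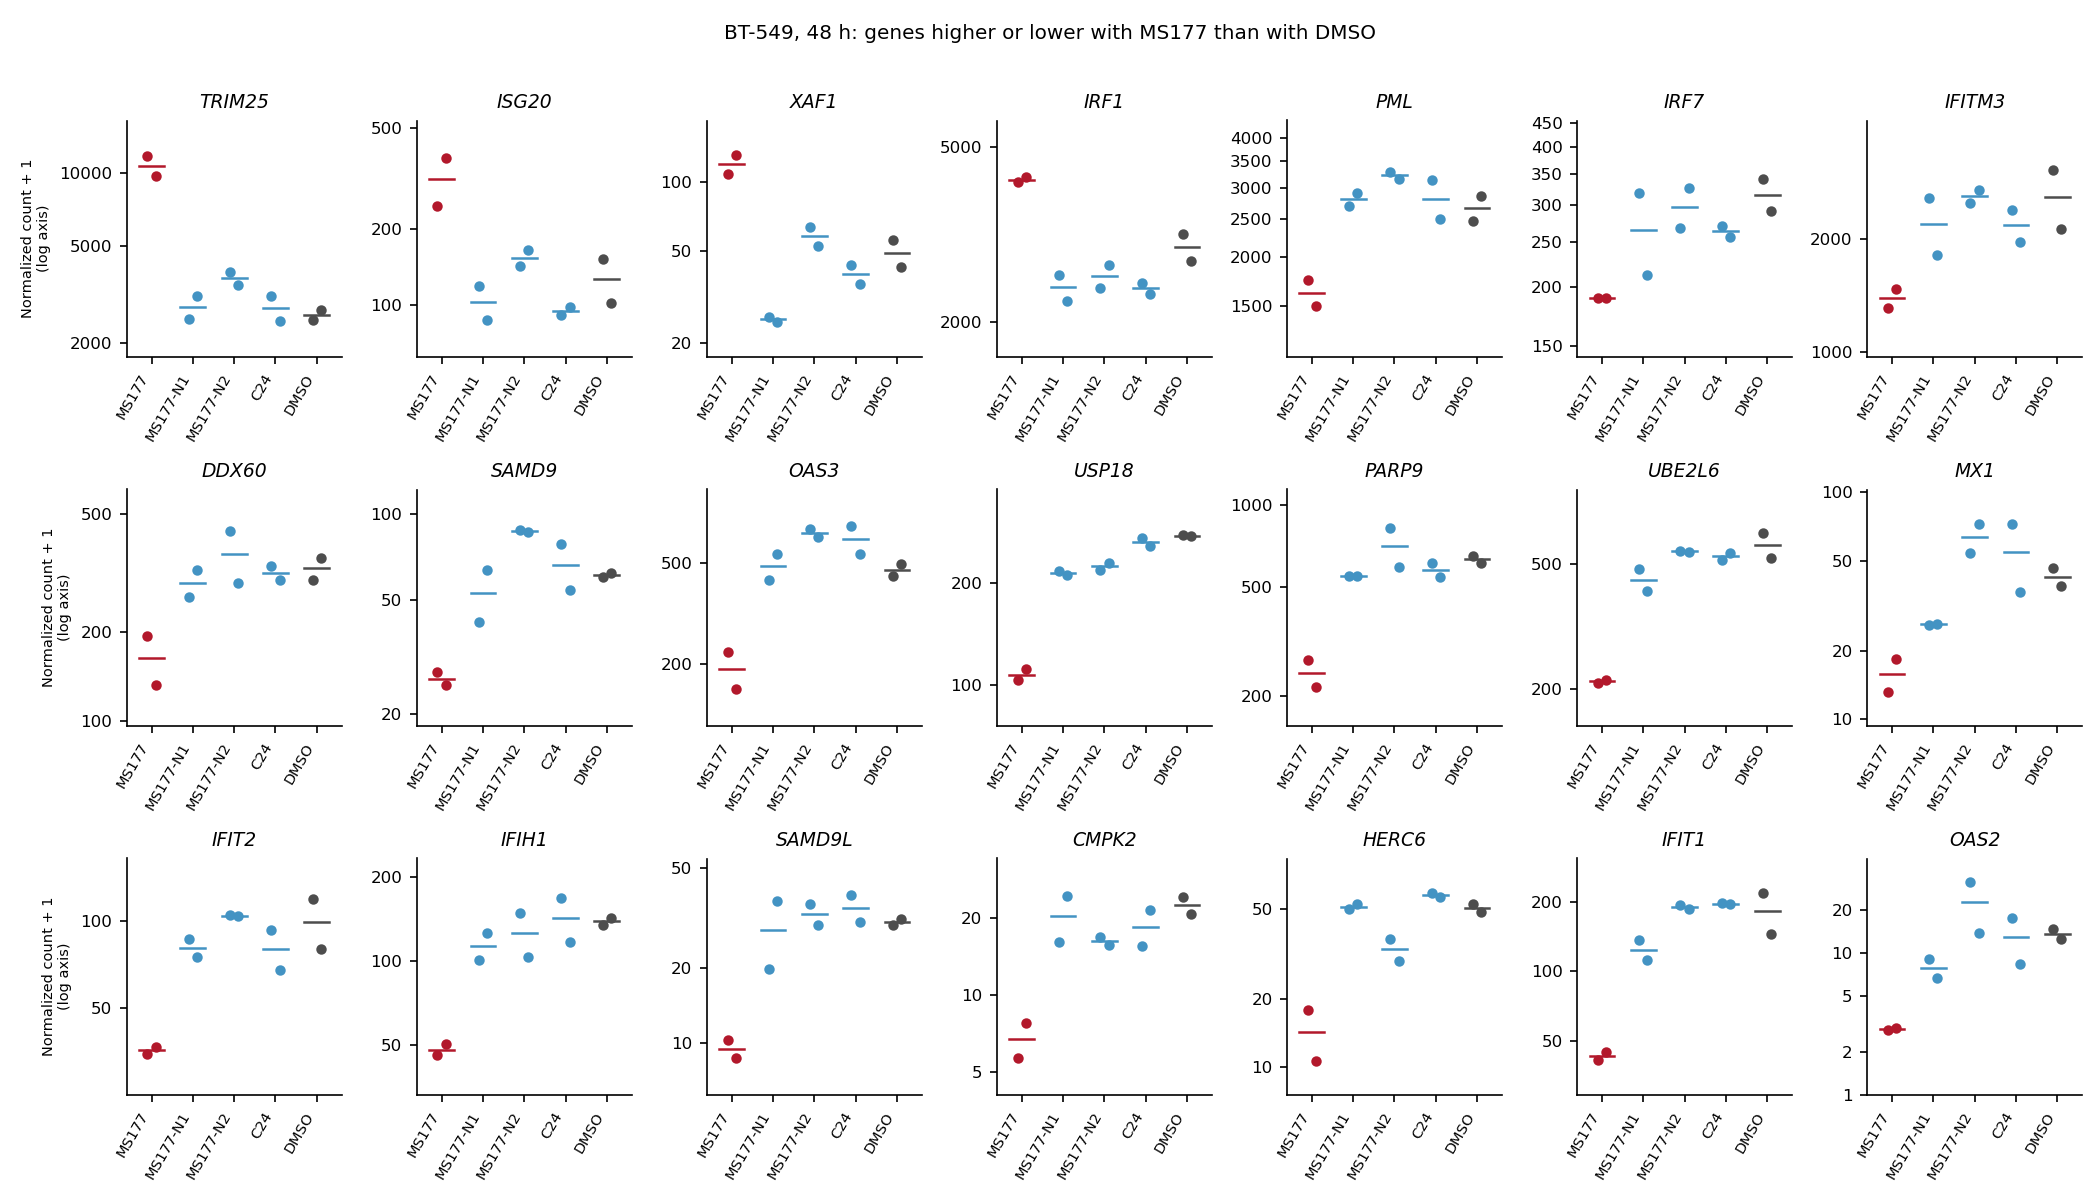
Normalized count + 1 (log axis, scale of its own per panel) in BT-549 after 48 h for the 21 genes that passed the test of MS177 against DMSO, ordered by log2 difference. Points are the 2 libraries of a group and bars their mean, for MS177 (red), MS177-N1, MS177-N2 and C24 (blue) and DMSO (grey). TRIM25 reached 11691 and 9758 with MS177, above every other library, and IFIT1 stood at 40.2 and 43.6, below every other library.

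The comparators of MS177 in BT-549 were tested against DMSO in the same way. None of 42 tested genes passed with MS177-N1, with MS177-N2 or with C24 (limma), while 0%, 2.12% and 0.165% of all tested genes did. At an unadjusted p below 0.05 there were 2, 8 and 2 genes for these compounds, and voom, a count-based limma fit on the recovered reads, also passed 0 genes in each. With a replicate block 8 genes passed for MS177-N1 and 0 for MS177-N2 or C24, though replicate numbers are not shown to pair samples.

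Set directly against its comparators, with the tables brought to 1 scale through their shared DMSO libraries, MS177 again had genes on both sides. Against MS177-N1, 5 genes were higher and 15 lower with MS177 of 42 tested (33.1% of all tested genes passed, 15.4% higher and 17.7% lower). Against MS177-N2, 5 were higher and 25 lower (37.2% of all tested genes, 17.8% higher and 19.4% lower). Against C24, 5 were higher and 22 lower (35.7% of all tested genes, 16.8% higher and 18.9% lower). These comparisons share the MS177 libraries. TRIM25, IRF1, ISG20 and XAF1 were higher than with each comparator. Genes lower than with each included IFIT1, IFIT2, IFIH1, OAS3, USP18, UBE2L6 and HERC6. How many of all tested genes passed against all 3 comparators was not counted. IFIT1 was at 40.2 and 43.6 with MS177, against 136 and 111 with MS177-N1 (log2 difference -1.53 ± 0.21, limma adjusted p = 0.000757). With MS177-N2 it stood at 193 and 185 (log2 difference -2.15 ± 0.21, limma adjusted p = 0.00012) and with C24 at 197 and 195 (log2 difference -2.2 ± 0.21, limma adjusted p = 9.09e-05). TRIM25 was at 11691 and 9758 with MS177, against 2511 and 3123 with MS177-N1, 3911 and 3472 with MS177-N2 and 3114 and 2461 with C24. Its log2 differences were 1.93, 1.53 and 1.95 in that order. XAF1 was at 107 and 131 with MS177, against 25 and 23.5 with MS177-N1, 63.1 and 51.5 with MS177-N2 and 42.6 and 35.1 with C24. Without C24 replicate 1 fewer genes of the list passed against C24, and fewer of all tested genes.

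MS8815 in T47D-TR raised a compact group of these genes by large factors and lowered none past the threshold. Of 41 tested genes 9 rose (22%), while 3.01% of all 13456 tested genes rose and 2.18% fell (5.19% passed). The median log2 difference over the 41 genes was 0.37, against -0.0066 over all tested genes, with 23 differences above 0. Of the 36 genes that entered the test through libraries of both groups, 8 rose (22.2%). All 4 IFIT genes rose, together with RSAD2, OASL, ISG20, IFI44 and MX1.

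IFIT2 (chromosome 10, 89283694 to 89309276, forward strand) was at 527 and 848 with MS8815, against 31.4 and 15.5 with DMSO, a 29.3-fold rise (log2 difference 4.85 ± 0.45, limma adjusted p = 0.0302). IFIT3 (chromosome 10, 89327894 to 89340971, forward strand) was at 249.99 and 299 with MS8815 and at 15.4 and 14.5 with DMSO (18.3-fold, limma adjusted p = 0.019). IFIT1 was at 479 and 521 with MS8815 and at 80.4 and 26.9 with DMSO (9.32-fold, limma adjusted p = 0.0471). Both MS8815 libraries were high in each case, and for IFIT1 and IFIT2 the DMSO libraries also stood apart from each other. IFIT5 (chromosome 10, 89414586 to 89421001, forward strand) was at 327 and 478 with MS8815 and at 129.8 and 129 with DMSO (3.11-fold, limma adjusted p = 0.0498).

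RSAD2 encodes viperin, which makes a nucleotide that terminates viral RNA chains (chromosome 2, 6865806 to 6898239, forward strand). It was at 258 and 291 with MS8815, against 5.96 and 7.0 with DMSO, a 42.4-fold difference (log2 difference 5.21 ± 0.33, limma adjusted p = 0.0187), and it entered the test through its MS8815 libraries alone. Its neighbour CMPK2, transcribed from the opposite strand and overlapping it, was at 2.43 and 14.4 with MS8815 and at 14.8 and 18.7 with DMSO and did not pass (limma adjusted p = 0.385). The groups of CMPK2 did not overlap, with MS8815 the lower.

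OASL, a relative of the oligoadenylate synthetases that enhances RIG-I (chromosome 12, 121019111 to 121039242, reverse strand), was at 316 and 575 with MS8815, against 32.3 and 21.8 with DMSO (16.4-fold, limma adjusted p = 0.0315). ISG20 (chromosome 15, 88636153 to 88656483, forward strand) was at 775 and 364 with MS8815 and at 32.8 and 50.8 with DMSO (13.6-fold, limma adjusted p = 0.0364). IFI44, a cytoplasmic protein of the antiviral response, was at 154 and 104 with MS8815 and at 14.6 and 4.57 with DMSO (13.5-fold, limma adjusted p = 0.0474). Here each MS8815 library exceeded each DMSO library several times over. MX1 (chromosome 21, 41420304 to 41459214, forward strand) was at 1091 and 1806 with MS8815 and at 411 and 302 with DMSO (4.07-fold, limma adjusted p = 0.0481).

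The other RNA sensors, factors and enzymes of the list lay on either side of 0 and did not pass. HERC5 was at 115 and 49.8 with MS8815 and at 10.0 and 5.22 with DMSO, 10.8-fold apart (limma adjusted p = 0.0555), and both DMSO libraries lay under the filter of 10, so that it entered the test through MS8815 alone. IRF1 was at 103 and 194 with MS8815 and at 46.4 and 38.3 with DMSO (3.5-fold, limma adjusted p = 0.0768). For both genes the groups did not overlap. OAS3 lay the other way, at 166 and 332 with MS8815 and 669 and 639 with DMSO (2.63-fold, limma adjusted p = 0.0895). IFITM2 was at 52.2 and 33.5 with MS8815 and 132 and 137 with DMSO (limma adjusted p = 0.0617), and it overlaps IFITM1 on the same strand. STAT2, which with IRF9 carries the interferon signal, was at 127 and 209 with MS8815 and 179.9 and 235 with DMSO, so the groups overlapped. SAMD9L lay under the filter, at 9.94 and 17 with MS8815 and 1.59 and 0 with DMSO.

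These counts depended on single libraries. Without MS8815 replicate 1, the library rich in HSP90AA1, 14 genes were higher and 6 lower, and without MS8815 replicate 2, 13 were higher and 10 lower. In those fits 44.9% and 56.5% of all tested genes passed, and the lone MS8815 library was assumed to vary like the DMSO libraries, the only replicated group of the fit. With all 30 h libraries of T47D-TR in the fit, MS8815-N replicate 2 included, 0 of 42 genes passed for MS8815 against DMSO (8 at an unadjusted p below 0.05, limma), while 0.0789% of all tested genes did, and the 9 genes had limma adjusted p-values of 0.165 to 0.733. In the fit of MS8815 and DMSO, IFIT1, IFIT5, MX1 and IFI44 no longer passed without DMSO replicate 4. IFIT5 and MX1 no longer passed without DMSO replicate 3. The share of all tested genes that passed fell as well in both of these fits, where DMSO kept only 1 library. The luminal marker list, 8 genes, summed to 111033 to 132506 with MS8815, against 186679 to 203330 with DMSO, and SPDEF alone of them passed, at 562 and 435 with MS8815 against 1399 and 1351 with DMSO. The immune cell marker CD68 was at 0 and 20.0 with MS8815 and at 1.52 and 0 with DMSO. The part of these markers in the result was not tested.

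**Figure D2:**
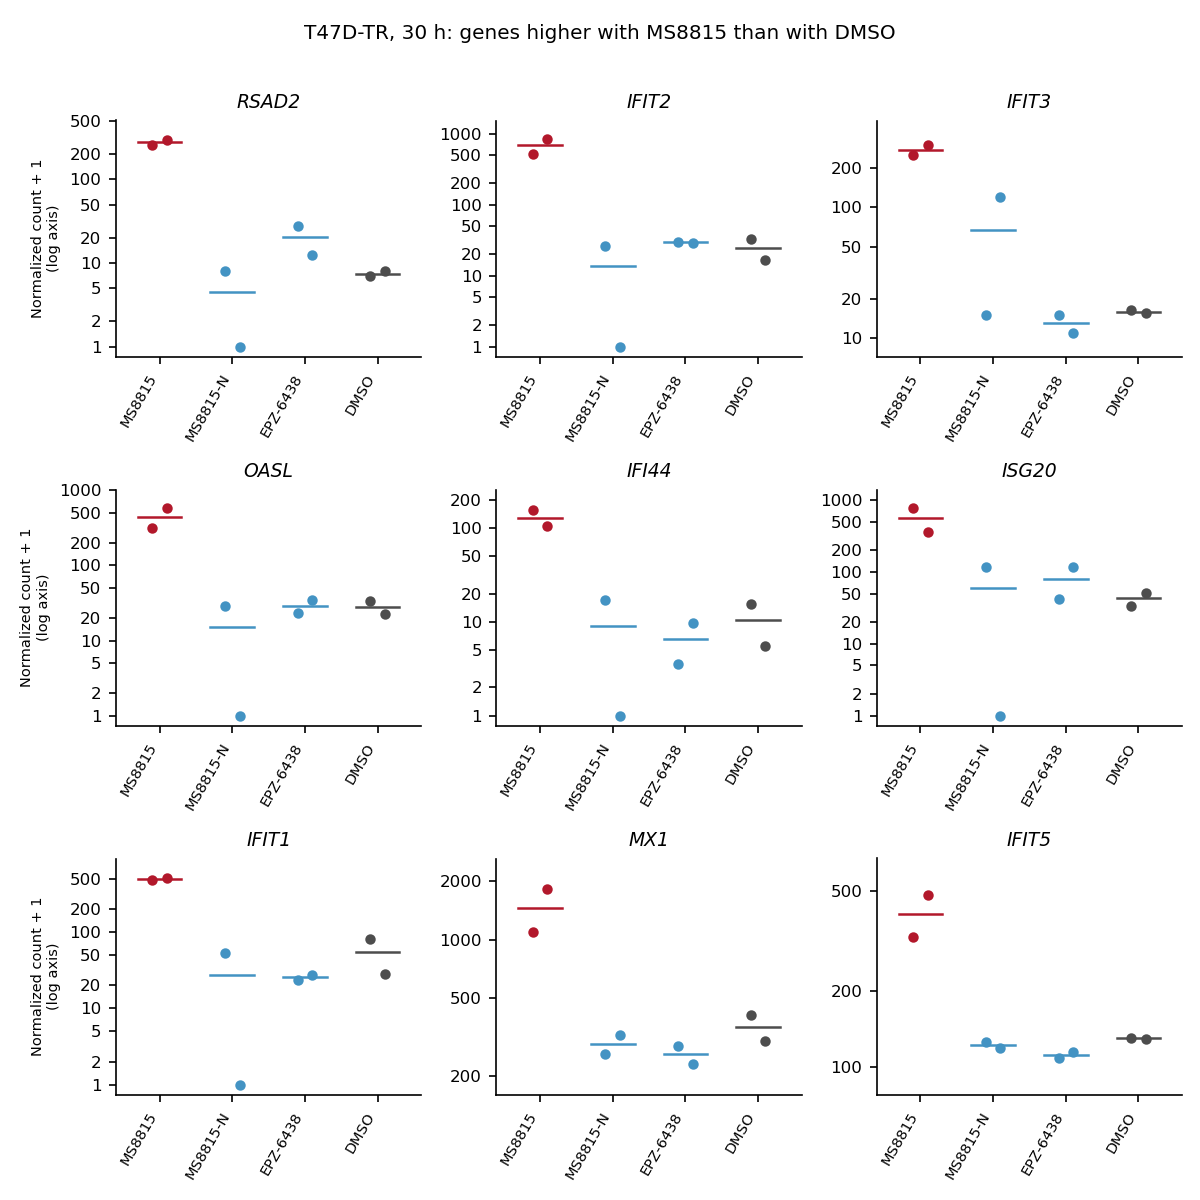
Normalized count + 1 (log axis, scale of its own per panel) in T47D-TR after 30 h for the 9 genes that rose with MS8815. Points are the 2 libraries of a group and bars their mean, for MS8815 (red), MS8815-N and EPZ-6438 (blue) and DMSO (grey); MS8815-N replicate 2 is the library with 44.3% of genes at 0. IFIT1 stood at 479 and 521 with MS8815, against 80.4 and 26.9 with DMSO.

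MS8815-N and EPZ-6438 against DMSO passed 0 of 30 and 0 of 39 tested genes (limma), as they passed 0% of all tested genes in each table. At an unadjusted p below 0.05 there were 0 and 1 genes. Leaving out EPZ-6438 replicate 1, or either MS8815-N replicate, brought genes of the list past the threshold, as it did a large share of all tested genes. In those fits the lone library of the compound was assumed to vary like the DMSO libraries.

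The direct comparison of MS8815 with EPZ-6438, with tables set on 1 scale through their shared DMSO libraries, passed 0 of 42 genes when MS8815-N replicate 2 shared the estimate of spread (7 at an unadjusted p below 0.05, limma), with 0.108% of all tested genes passing. In a fit of all 30 h libraries without that one, which was chosen after its many zeros were seen, 8 genes were higher with MS8815 and 4% of all tested genes passed (2.16% higher and 1.85% lower). They were IFIT1, IFIT2, IFIT3, IFIT5, MX1, OASL, RSAD2 and IFI44. A fit of the 2 compared groups with DMSO gave 9. IFIT2 was at 527 and 848 with MS8815, against 28.8 and 28.3 with EPZ-6438, and IFIT1 was at 479 and 521 with MS8815 against 22.3 and 26.6 with EPZ-6438. RSAD2 was at 258 and 291 with MS8815 and 27 and 11.4 with EPZ-6438. In the fit of all libraries without MS8815-N replicate 2, 11 genes passed for MS8815 against DMSO, 10 higher and 1 lower (5.25% of all tested genes, 2.76% higher and 2.49% lower), with HERC5 joining the higher genes and IFITM2 the lower.

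MS8815 against MS8815-N passed 0 of 42 genes (12 at an unadjusted p below 0.05, limma; 0.0574% of all tested genes passed). The replicates of MS8815-N were far apart. IFIT1 was at 52.3 in its replicate 1 and at 0 in its replicate 2, IFIT2 at 25.6 and 0, and OASL at 28.1 and 0. IFIT3 was at 14.1 in replicate 1 and at 119 in replicate 2, and MX1 at 257 and 323. In replicate 1 these 5 genes were below both MS8815 libraries, and IFIT1, IFIT2 and OASL lay between the DMSO libraries. Without replicate 2 of MS8815-N some genes of the list were higher with MS8815, while few of all tested genes passed. Without its replicate 1 most of all tested genes passed, and most of the list. In both fits MS8815-N was a lone library that took its spread from the other groups.

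The response to MS177 in BT-549 differed from the response to MS8815 in T47D-TR for 8 of 37 genes tested jointly (21.6%), while 9.55% of all tested genes differed, 4.28% with the BT-549 response higher and 5.27% with it lower (limma, difference of the 2 log2 differences). For 7 genes the BT-549 response was the lower and for TRIM25 the higher. IFIT2 differed most, by -6.3 ± 0.59 (limma adjusted p = 0.00287), and it fell in BT-549 and rose in T47D-TR. IFIT1 differed by -5.45 ± 0.69 (limma adjusted p = 0.00784) and MX1 by -3.43 ± 0.47 (limma adjusted p = 0.00964), both falling in the first and rising in the other. Those 3 genes, of 17 that fell in BT-549 and 9 that rose in T47D-TR, passed in opposite directions. How many of all tested genes did so was not counted. IFI44, IFIT3 and IFIT5 rose in T47D-TR without passing in BT-549, and their responses differed by -5.06, -4.05 and -1.61 (limma adjusted p = 0.0208, 0.00177 and 0.023). HERC5 passed in neither line but its responses differed by -3.06 ± 0.62 (limma adjusted p = 0.0294), a difference that the filter favours, since in T47D-TR the gene was tested through MS8815 alone. TRIM25 differed by 2.43 ± 0.31 (limma adjusted p = 0.00795).

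ISG20 was the only gene that rose past the threshold in both, and the difference between its responses was -2.37 ± 0.63 (95% interval -3.87 to -0.88, limma adjusted p = 0.0625). The sensor DDX58, at 0.03 in BT-549 and 0.88 in T47D-TR, differed by -0.85 ± 0.30 (limma adjusted p = 0.127). OAS3 had negative differences in both, -1.32 and -1.47, and their difference was 0.16 ± 0.48 (95% interval -0.98 to 1.3). Leaving out 1 library of BT-549 or 1 DMSO library of T47D-TR lowered the count of 8. The share of all tested genes that passed fell in those fits as well. Without either MS8815 replicate the count rose. In each of these fits 1 group kept only 1 library. IFIT2 and IFIT3 passed in each of these fits. The share of all tested genes that passed rose as well without either MS8815 replicate.

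**Figure D3:**
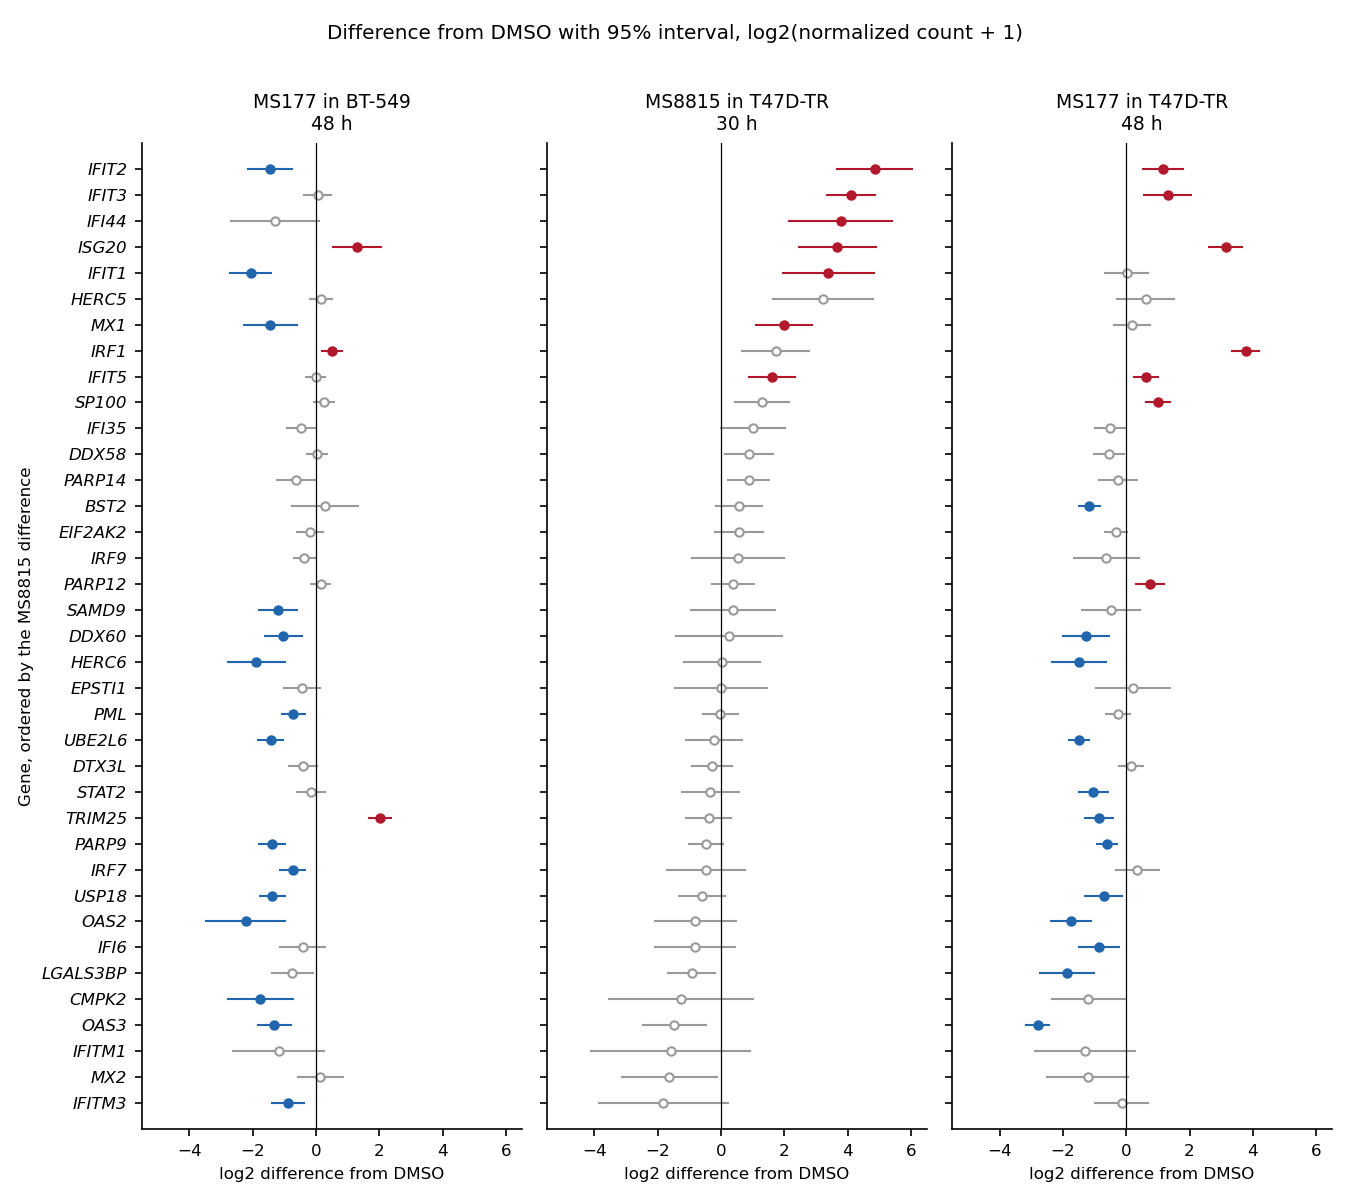
Log2 difference from DMSO with its 95% interval, on the log2(normalized count + 1) scale, for the 37 genes tested in both MS177 in BT-549 and MS8815 in T47D-TR, with MS177 in T47D-TR beside them where tested. Filled red and blue points rose and fell past the threshold, open grey points did not pass. IFIT2 lies at -1.45, 4.85 and 1.18 in the 3 panels.

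MS177 in T47D-TR, the same compound as in BT-549 and the same line as under MS8815, moved these genes in both directions. Of 41 tested genes 8 rose and 13 fell (51.2%), while 54.6% of all tested genes passed (27.6% higher and 26.9% lower), so the share was close to that of all genes. Without the 3 genes that entered the test through 1 group alone, 7 rose and 13 fell of 38. IRF1 was at 1106 and 987 with MS177, against 68.3 and 83.8 with DMSO, a 13.8-fold rise (limma adjusted p = 3.18e-05). ISG20 was at 397 and 514 with MS177 and at 56 and 45.4 with DMSO (8.98-fold, limma adjusted p = 0.000122). RSAD2 was at 37.3 and 55.7 with MS177 and at 6.63 and 9.79 with DMSO (5.66-fold, limma adjusted p = 0.00353), again entering the test through treated libraries alone. IFIT2, IFIT3 and IFIT5 also rose (1.55 to 2.57-fold), as did SP100 and PARP12. IFIT1 did not, at 47.5 and 38.5 with MS177 and 42.7 and 42.2 with DMSO. Under MS8815 at 30 h the same gene had been 9.32-fold up.

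Falls in T47D-TR were led by OAS3, at 205 and 180.1 with MS177 against 1221 and 1487 with DMSO (7.03-fold, limma adjusted p = 5.86e-05). LGALS3BP, a secreted binding protein of galectins, was at 44.7 and 24.1 with MS177 and at 108 and 139.7 with DMSO (3.59-fold). OAS2 was at 63.9 and 43.6 with MS177 and at 198 and 162 with DMSO (3.35-fold, limma adjusted p = 0.00203). UBE2L6, HERC6, DDX60, IFITM2, BST2, STAT2, IFI6, TRIM25, USP18 and PARP9 fell 1.53 to 2.95-fold. OAS2, OAS3, UBE2L6, HERC6, DDX60, USP18 and PARP9 fell with MS177 in both BT-549 and T47D-TR, 7 of the 17 genes that fell in the first and of the 13 that fell in the other. They were 18.9% of the 37 members tested in both lines, while 947 of all 11945 genes tested in both fell in both (7.93%). Of these, OAS2 entered the BT-549 test through its DMSO libraries alone. IRF1 and ISG20 rose in both lines, 5.41% of the 37 members, while 8.42% of all genes tested in both did so. The 8 luminal markers summed to 219940 to 225716 with MS177 and to 219168 to 258123 with DMSO in these libraries, while ESR1 among them was at 527 and 381 with MS177 and at 1442 and 1655 with DMSO. The immune marker CD68 was at 44.2 and 40.4 with MS177 and at 0.764 and 2.07 with DMSO, and the part of these markers in the result was not tested. Leaving out any 1 library lowered the count, and lowered the share of all tested genes that passed. Each of IFI6, USP18, IFIT5, IFIT2, IFIT3, PARP12, PARP9, HERC6 and DDX60 missed the threshold without at least 1 library. Without MS177 replicate 1 these were IFIT2, IFIT3, IFIT5, PARP12, PARP9 and USP18.

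Between the lines, the response to MS177 differed for 16 of 37 genes (43.2%), while 32.5% of all tested genes differed. For 4 of them the BT-549 response was the higher and for 12 the lower, at 17.6% and 14.9% of all tested genes. TRIM25 rose in BT-549 and fell in T47D-TR, where it was at 1378 and 1008 with MS177 and 1904 and 2363 with DMSO. Its responses differed by 2.89 ± 0.25 (limma adjusted p = 0.000228). IFIT2 fell in BT-549 and rose in T47D-TR, a difference of -2.63 ± 0.38 (limma adjusted p = 0.00182). These were the 2 genes that passed in opposite directions, each 2.7% of the 37. Of all 11945 genes tested in both lines, 0.795% rose in BT-549 and fell in T47D-TR, and 1.17% did the reverse. IRF1 rose in both, by 0.51 in BT-549 and by 3.77 in T47D-TR, a difference of -3.26 ± 0.20 (limma adjusted p = 6.15e-05). Without any 1 library the count was lower, and so was the share of all tested genes that differed.

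MS177 in T47D passed 0 of 42 genes, as it passed 0% of all tested genes there (11 of the 42 at an unadjusted p below 0.05, limma; voom passed 0). Its replicates differed widely. ISG20 was at 1233 and 323 with MS177, against 72.7 and 58.2 with DMSO, and IRF1 was at 809 and 659 with MS177 against 98.7 and 114 with DMSO. OAS3 was at 256 and 1241 with MS177 and at 5412 and 4433 with DMSO, and TRIM25 at 1990.1 and 3531 with MS177 and 5874 and 5173 with DMSO. The groups did not overlap for these 4 genes. Their log2 differences of 3.26, 2.77, -3.12 and -1.06 have 95% intervals of 1.32 to 5.19, 1.99 to 3.55, -5.32 to -0.92 and -2.08 to -0.03. Without either MS177 replicate many genes of the list passed, as most of all tested genes did, where the lone library is assumed to vary as DMSO does. Without either DMSO replicate few genes passed, of the list or of all tested genes.

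MS177-N1 in T47D-TR was the only other compound with genes past the threshold, 2 higher and 5 lower of 40 tested (17.5%), while 17.3% of all tested genes passed (9.92% higher and 7.39% lower). IFI6, a mitochondrial antiviral protein, was at 269 and 438 with MS177-N1 and at 179 and 158 with DMSO (2.1-fold, limma adjusted p = 0.0241). BST2, the tether that holds budding virus at the cell surface, was at 7079 and 9292 with MS177-N1 and at 4934 and 3837 with DMSO (1.87-fold, limma adjusted p = 0.0158). Both of these genes fell with MS177 in that line, where BST2 was at 2126 and 2247 with MS177 and 5525 and 4334 with DMSO on the scale of the MS177 table. HERC6, OAS2 and OAS3 were the lower genes with the largest differences, 2.88, 2.01 and 1.79-fold (limma adjusted p = 0.0334, 0.025 and 0.0161). All genes of the list that passed missed the threshold without DMSO replicate 2 or MS177-N1 replicate 2, where few of all tested genes passed. Some missed it without DMSO replicate 1, where slightly fewer of all tested genes passed. In those fits 1 group kept only 1 library.

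The remaining tables passed no gene (limma). MS177-N2 and C24 in T47D-TR passed 0 of 39 each, against 0.111% and 0.014% of all tested genes, with 3 and 1 at an unadjusted p below 0.05. In T47D, MS177-N1 (1 library), MS177-N2 and C24 passed 0 of 42, 42 and 43, against 0.0651%, 0% and 0.574% of all tested genes. There were 4, 2 and 4 at an unadjusted p below 0.05, and voom passed 0 in each. Without DMSO replicate 1 of T47D, more of the list passed with C24 and with MS177-N2, as did more of all tested genes.

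**Figure D4:**
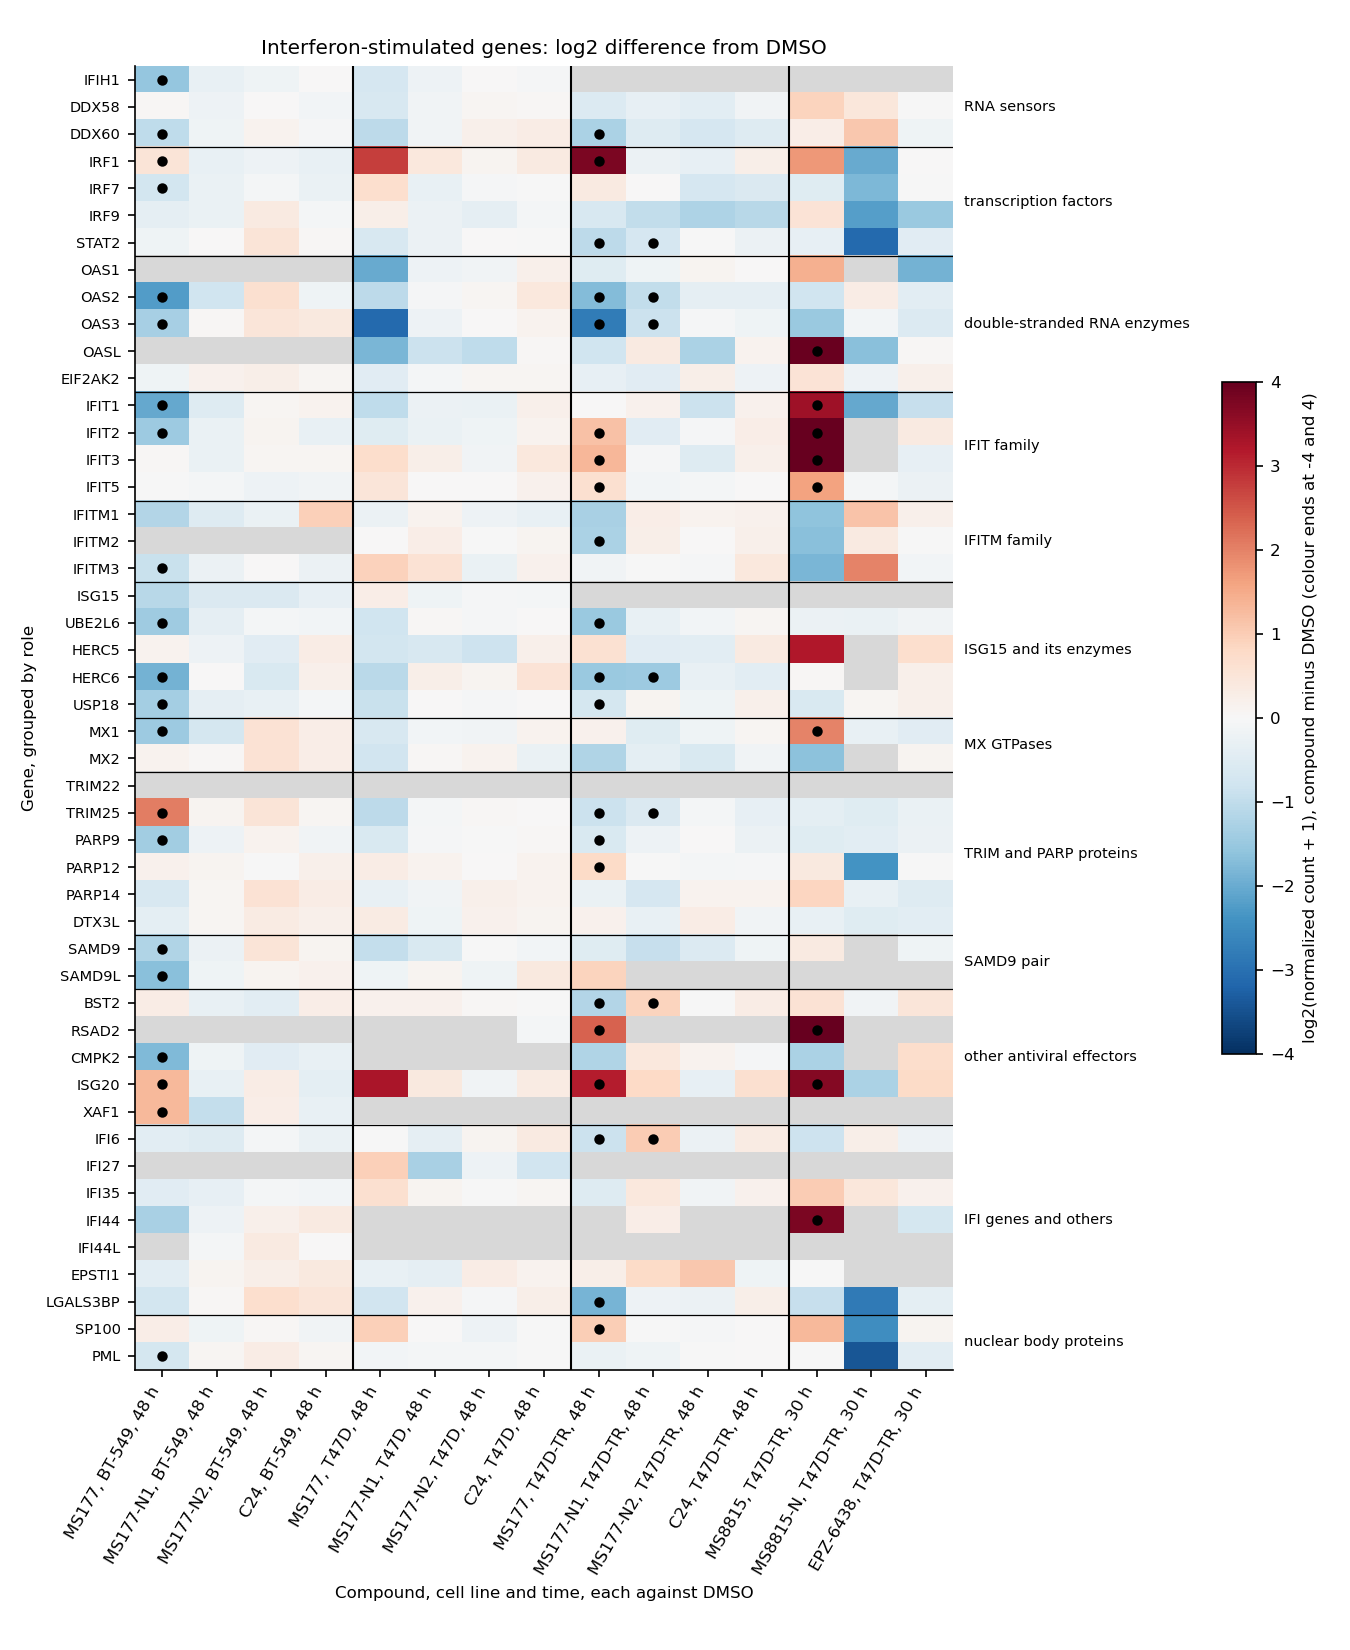
Log2 difference from DMSO for the 48 genes (rows, grouped by role) in the 15 tables (columns; BT-549, T47D, T47D-TR at 48 h and T47D-TR at 30 h), with red higher and blue lower with the compound, the colour ending at -4 and 4. Black dots mark genes past the threshold and grey cells genes not listed or under the filter; dots stand in the MS177 columns of BT-549 (21) and T47D-TR (21), the MS8815 column (9) and the MS177-N1 column of T47D-TR (7).

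Upstream of these genes, few interferon ligands were listed. IFNE, the 1 listed of 12 in the BT-549 table of MS177, was at 21.5 and 17.4 with MS177 and 18 and 16.6 with DMSO and did not pass, while with MS8815 in T47D-TR the 2 listed ligands stayed under the filter. Of 10 tested receptor and JAK-STAT genes in BT-549, 3 fell and none rose with MS177, while 12.6% and 11.5% of all tested genes fell and rose. IFNGR1, a chain of the interferon gamma receptor, was at 2277 and 2077 with MS177, against 4267 and 3726 with DMSO (limma adjusted p = 0.0103). IFNGR2 was at 1144 and 1213 with MS177 and 2195 and 2012 with DMSO, and IFNAR2 was at 638 and 559.6 with MS177 and 838 and 864 with DMSO (limma adjusted p = 0.00937 and 0.0444).

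Of 12 tested genes of nucleic acid sensing in BT-549, 2 rose and 3 fell, against 24% of all tested genes passing in either direction (11.5% higher and 12.6% lower). IKBKE, a kinase that activates IRF3 and IRF7, was at 20.6 and 13.6 with MS177, against 398 and 483 with DMSO, a 25.8-fold fall (limma adjusted p = 0.00149). TLR3, an endosomal sensor of double-stranded RNA, was at 40.2 and 33.9 with MS177 and 80.3 and 88.4 with DMSO, and MYD88, an adaptor of Toll-like receptors, was at 979.5 and 971 with MS177 and 1699 and 1859 with DMSO. CGAS, the cytosolic DNA sensor, was 1.51-fold and TICAM1, the adaptor of TLR3, 1.61-fold higher with MS177. The list's median log2 difference was -0.060, against 0.014 over all tested genes.

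Among 11 negative regulators in BT-549, 4 fell and 1 rose with MS177, beside 12.6% lower and 11.5% higher among all tested genes. NLRC5 was at 155 and 140.4 with MS177 and 299 and 324 with DMSO. SOCS3, an inhibitor of JAK kinases, was at 695 and 606 with MS177 and 1234 and 1243 with DMSO. SOCS1, of the same family, was at 87.9 and 119 with MS177 and 199 and 169 with DMSO. RNF125, a ligase that marks RIG-I for degradation, was at 51.4 and 34.9 with MS177 and 13.7 and 9.36 with DMSO (3.74-fold, limma adjusted p = 0.0249).

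Of 12 tested targets shared with interferon gamma in BT-549, 5 fell and 2 rose with MS177, and of all tested genes 12.6% fell and 11.5% rose. CXCL10, a chemokine for T cells, was at 7.48 and 13.6 with MS177, against 64.4 and 56.1 with DMSO (limma adjusted p = 0.0116). GBP1, a guanylate-binding protein, was at 94.4 and 88.1 with MS177 and 416 and 346 with DMSO (4.18-fold lower, limma adjusted p = 0.0028). APOL1 was at 12.2 and 9.68 with MS177 and 59.1 and 29.1 with DMSO. The genes that rose were WARS1, the cytosolic tryptophanyl-tRNA synthetase, at 20294 and 17772 with MS177 and 2583 and 2760.2 with DMSO, and CD274, which encodes the checkpoint ligand PD-L1, at 219 and 185 with MS177 and 48.6 and 44.7 with DMSO. They rose 7.12 and 4.33-fold (limma adjusted p = 0.00085 and 0.00364). Of 9 immune cell markers 3 were listed in BT-549, summing to 371 to 396 with MS177 and 178 to 199.6 with DMSO, of which CD68 rose and PTPRC stayed at or below 10.6. The part of these markers in the result was not tested.

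With MS8815 in T47D-TR, none of the tested genes of these upstream and related lists passed (0 of 11 receptor and JAK-STAT genes, 0 of 9 sensing genes, 0 of 11 negative regulators and 0 of 7 targets shared with interferon gamma, limma). The last list had a median log2 difference of 1.51, against -0.0066 over all tested genes.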

How the data were processed

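RNA sequencing of 38 samples in 19 groups was deposited as 15 tables of log2 values, taken to come from a variance-stabilizing transform by the authors. The names of the T47D-TR tables give that transform, while those of BT-549 and T47D say only that expression was normalized. The authors used RSEM, DESeq and hg38, per the submitters' processing notes, while versions and strandedness are not given in the sources used here. Each deposited log2 value was turned back to a normalized count with the inverse of the transform, checked by the ratio of the DMSO libraries, which was equal across tables (largest relative difference 3.53e-13). In BT-549 and T47D 100% of the values were whole multiples of 1 step (tolerance 0.05), which gave the reads used by voom. In T47D-TR 8.17% to 16.3% were, and no depth was recovered.

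The test was limma 3.58.1 (R 4.3.3) with mean trend and robust variance on log2(normalized count + 1), two-sided, Benjamini-Hochberg adjusted over all genes with 10 or more normalized counts in at least 2 libraries. The fit was tested on simulated data, which did not pass through the inversion. In T47D the table of MS177-N1 has a second compound column that is named for MS177-N2 and equals MS177-N2 replicate 2 in 100% of 17724 genes, so MS177-N1 had 1 library there. No column of unknown sample was used.

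Per-library values were printed for up to 12 genes each way past the threshold in the 2 main comparisons, for up to 3 each way in other tables and in the other lists, and for members otherwise described. Genes and lists were chosen with earlier results of these data known. Gene positions are from GENCODE v29 (GRCh38). Alternatives were the deposited scale, a pseudocount of 8, no filter, quantile scaling, all libraries of a line and time, the compared groups only, a replicate block, voom and leaving out each replicate.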

Additional observations from a re-analysis of the deposited data

Results flagged for a closer look

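The response to MS177 differed between BT-549 and T47D-TR for 16 genes by a test of the difference itself (limma, adjusted over all tested genes), each given as the log2 difference from DMSO in BT-549 minus that in T47D-TR. TRIM25 differed by 2.89 ± 0.25, OAS3 by 1.49 ± 0.28, BST2 by 1.45 ± 0.31 and STAT2 by 0.88 ± 0.27. TRIM25 rose in BT-549 and fell in T47D-TR, and OAS3 fell in both. BST2 and STAT2 fell past the threshold in T47D-TR and had differences of 0.29 and -0.16 in BT-549.

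The response in BT-549 was the lower for the other 12. IRF1 differed by -3.26 ± 0.20, ISG20 by -1.84 ± 0.41 and PARP9 by -0.78 ± 0.21, where IRF1 and ISG20 rose in both lines and PARP9 fell in both. IFIT2 differed by -2.63 ± 0.38, IFIT1 by -2.07 ± 0.37, IFIT3 by -1.26 ± 0.30 and IFIT5 by -0.64 ± 0.18. SAMD9L differed by -2.56 ± 0.51, MX1 by -1.62 ± 0.40 and IRF7 by -1.08 ± 0.31, and these 3 genes fell in BT-549 without passing in T47D-TR. SAMD9L entered the test through DMSO alone in BT-549 and through MS177 alone in T47D-TR, so that the filter favours its difference. SP100 differed by -0.74 ± 0.18 and PARP12 by -0.60 ± 0.19, both of which rose in T47D-TR without passing in BT-549.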

How the results depend on the processing

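No result changed direction among the alternatives run. Counts of members past the threshold that moved by over 1.5 times were the following. With the replicate block MS177-N1 in BT-549 passed 8, MS177 in T47D 3, C24 in T47D 1, and the difference between the MS177 responses 7. With all libraries of a line and time in the fit MS177 in T47D passed 10, and MS177-N1 and MS8815 in T47D-TR passed 0 each. C24 in T47D passed 1 on the deposited scale and 1 with no filter, and MS8815 passed 5 with no filter. With quantile scaling MS8815 passed 3 against MS8815-N and 3 against EPZ-6438, and against EPZ-6438 it passed 9 with the compared groups only and 8 in the fit of all libraries without MS8815-N replicate 2, chosen after seeing the data.

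Leaving out 1 replicate in turn gave 15 to 25 for MS177, 0 to 2 for MS177-N1, 0 to 2 for MS177-N2 and 0 to 1 for C24 in BT-549, and 1 to 35 for MS177, 0 to 1 for MS177-N2 and 0 to 4 for C24 in T47D. In T47D-TR it gave 16 to 19 for MS177, 0 to 9 for MS177-N1, 5 to 23 for MS8815, 0 to 20 for MS8815-N and 0 to 12 for EPZ-6438. MS177 against MS177-N1, MS177-N2 and C24 gave 14 to 19, 20 to 25 and 17 to 23. MS8815 against MS8815-N gave 0 to 29. The difference between MS177 in BT-549 and MS8815 gave 2 to 18, and that between the MS177 responses 7 to 13. The share of all tested genes past the threshold moved in these fits as well. The highest counts for MS177 in T47D and for MS8815, MS8815-N and EPZ-6438 in T47D-TR came where a large share of all tested genes passed. The same held for MS8815 against MS8815-N and for the difference between MS177 in BT-549 and MS8815. Such counts alone do not set the list apart from other genes. A group left with 1 library took its spread from groups that kept 2. The causes were not tested.

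Of the values of single genes past the threshold, 189 of 716 missed it without 1 replicate and 61 of 857 under the other settings. Replicate numbers are shared by 2 pairs only, so they are not shown to pair samples. No block was possible for the DMSO comparisons at 30 h, for the difference between MS177 and MS8815, or for MS177-N1 in T47D, which also had no replicate to leave out. The depth of T47D-TR libraries is unknown, and voom was not run there.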
